A study of Mus musculus with 8 samples.

Results

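The genes described here encode the Slit, semaphorin, ephrin and netrin guidance cues and their receptors in mouse lung myofibroblasts. They were chosen by symbol alone, as every row of the count table whose mouse Ensembl identifier maps to a semaphorin of classes 3 to 7, a plexin, a neuropilin, a Slit, a Robo, an ephrin, an Eph receptor, a netrin, an Unc5 receptor, Dcc or Neo1. This gave 69 genes of the 43432 in the table: 20 semaphorins, 9 plexins, 2 neuropilins, 3 Slits, 4 Robos, 5 A-type ephrins, 9 EphA receptors, 3 B-type ephrins, 5 EphB receptors, 3 netrins (Ntn1, Ntn4 and Ntn5) and 6 netrin receptors. Ntn3 was not analysed here. No measured value entered the rule, but the families were chosen with earlier results of these data known.

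The study profiled 8 RNA-seq libraries. 4 carry the label Fra-2 transgenic, from mice said to express Fra-2 constitutively, and 4 are wild-type controls. All 8 are lung myofibroblasts on the C57BL/6 background at postnatal day 7, the age at which alveolar walls are forming. The labels name neither the promoter that drives the transgene nor whether each library came from its own animal, so the p-values speak to the spread among these libraries alone, and that spread may be technical. Fosl2 encodes Fra-2, which joins a Jun protein to form the AP-1 transcription factor, and the series title places the comparison in the question of how Fra-2 acts on myofibroblasts during alveolar septation.

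Guidance cues were first described in growing axons, where they attract or repel the growth cone, and the same families steer the migration, adhesion and boundaries of many other cells. Slits are secreted and bind Robo receptors. Class 3 semaphorins are secreted and act through neuropilins that pair with plexins, while most other semaphorins are held in the membrane and bind plexins directly. Ephrins are held on the cell surface and signal in both directions with Eph receptors on a touching cell, and netrins act through Dcc, neogenin and Unc5 receptors. In the lung, members of these families take part in branching, vessel growth and the formation of alveoli.

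Total counts were 29926239 to 38954848 in the labelled Fra-2 libraries and 31986025 to 41335957 in the controls. Fosl2 itself measured 166, 134, 126 and 104 CPM (a gene's counts relative to its library's total, scaled by TMM) in labelled Fra-2 libraries 1 to 4, against 105, 117, 141 and 119 CPM in control libraries 1 to 4. The groups overlap, and the fold change was 1.10 with a 95% interval of 0.898 to 1.34 (edgeR adjusted p = 0.888, two-sided exact permutation p = 0.457). Because Fosl2 reads were not higher, the libraries are called labelled Fra-2 throughout and every direction is that of the label. Summed markers of myofibroblasts reached 20517 to 23817 CPM in labelled Fra-2 libraries and 20802 to 23211 CPM in controls. Most of this sum was Col1a1, Myh11, Tgfbi and Acta2. Of these 10 markers 1 was called, Stc1 (693 ± 101 CPM in labelled Fra-2 libraries and 470.3 ± 43.3 CPM in controls). At an edgeR unadjusted p under 0.05, 2 were higher, Stc1 and Fgf18 (log2 fold change 0.38), and 1 lower, Aspn (-0.48). DESeq2 called Stc1 and Fgf18. Control 2 stood apart by its mitochondrial ribosomal RNA, 7.496% of its counts, where the other libraries held 0.578% to 2.26%. Reads of Xist and of 4 genes on the Y chromosome marked 2 females and 2 males in each group, with labelled Fra-2 libraries 1 and 3 and control libraries 2 and 3 female. Over the 15422 genes that passed the filter on low counts, 111 were higher and 46 lower in the labelled Fra-2 libraries (edgeR, adjusted p under 0.05). The count of higher genes was 54, 50, 72, 50 and 67 without labelled Fra-2 1, 3 and 4 and control 2 and 3 in turn. That of lower genes was 22, 26 and 23 without labelled Fra-2 1, control 2 and control 3.

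Of 62 tested guidance genes, 3 rose in the labelled Fra-2 libraries, where 0.72% of all tested genes were called higher, and 0 fell, where 0.298% of all tested genes were called lower. The 3 that rose were the neuropilin gene Nrp2 and the Slit genes Slit2 and Slit3. The 250 bases before the RefSeq starts of Slit2 and Nrp2 are shown to the extent that they also lie before the first exon in GENCODE, since these are 2 of the called genes and the transgene encodes an AP-1 subunit. The sequences are RefSeq's, in build GRCm38.p6, both on the plus strand and written 5′ to 3′, at chr5:47982905-47983137 for Slit2 and chr1:62703067-62703284 for Nrp2. Capitals mark matches to GGGCGG or its reverse complement CCGCCC, the core of the GC box.
Slit2: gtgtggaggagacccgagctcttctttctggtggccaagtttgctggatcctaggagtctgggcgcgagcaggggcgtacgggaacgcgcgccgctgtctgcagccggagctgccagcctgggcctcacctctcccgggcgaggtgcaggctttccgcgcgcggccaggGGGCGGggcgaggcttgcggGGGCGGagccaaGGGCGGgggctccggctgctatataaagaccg
Nrp2: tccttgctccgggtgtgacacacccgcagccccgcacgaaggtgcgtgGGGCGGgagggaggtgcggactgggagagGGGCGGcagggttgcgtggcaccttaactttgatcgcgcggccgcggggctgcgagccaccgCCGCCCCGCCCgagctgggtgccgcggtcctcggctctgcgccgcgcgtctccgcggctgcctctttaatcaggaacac

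The AP-1 site TGACTCA, read on both strands, was in none of the 250-base windows of Slit2, Slit3 and Nrp2, which says only that these letters are not in these windows. It was in 4.46% of all 32851 RefSeq windows of the same length. Of the 75 windows that matched 59 of the 69 guidance genes, 2 held it, those of Sema4c and Sema6b. The GC box was in 53 of these 75 windows (70.7%) and in 32.7% of all windows. Overlapping matches included, there were 3 in the window of Slit2, 6 in that of Slit3 and 5 in that of Nrp2, of which 3 and 4 lie in the stretches shown for Slit2 and Nrp2. The window of Slit3 lies almost wholly past its GENCODE start and is not shown. The 3 windows were rich in G and C, at 69.6%, 78.8% and 72.4% for Slit2, Slit3 and Nrp2, where the median was 64.4% over the windows of guidance genes and 52.4% over all windows.

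RNA of both the cues and the receptors of all 4 systems was present in these bulk samples. Levels are compared between genes as CPM per kilobase of exon, averaged over the groups. The highest was neogenin, Neo1, a receptor for netrins and repulsive guidance molecules, with a level of 80.3 ± 6.90 CPM per kilobase in labelled Fra-2 libraries and 64.0 ± 5.12 CPM per kilobase in controls (SD, n = 4 each). The membrane-bound semaphorin Sema6d followed with 72.2 ± 6.63 and 70.6 ± 7.48 CPM per kilobase in labelled Fra-2 and control libraries. These first places in the order do not differ beyond the spread between libraries. Next came the secreted Sema3c at 58.1 ± 4.54 and 61.0 ± 2.75 CPM per kilobase and the ephrin-B receptor Ephb3 at 50.0 ± 13.2 and 54.4 ± 4.56 CPM per kilobase in labelled Fra-2 and control libraries, which also overlap in their spread. Plxna4, Efnb2, Ntn1, Robo1, Plxnb2, Efnb1, Robo2 and Nrp1 then lay close together at 35.3 to 45.6 CPM per kilobase as means of both groups. Slit2 and Slit3 stood lower than Robo1 and Robo2, with 15.8 ± 2.30 and 9.45 ± 1.71 CPM per kilobase for Slit3 in labelled Fra-2 and control libraries.

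**Figure D1:**
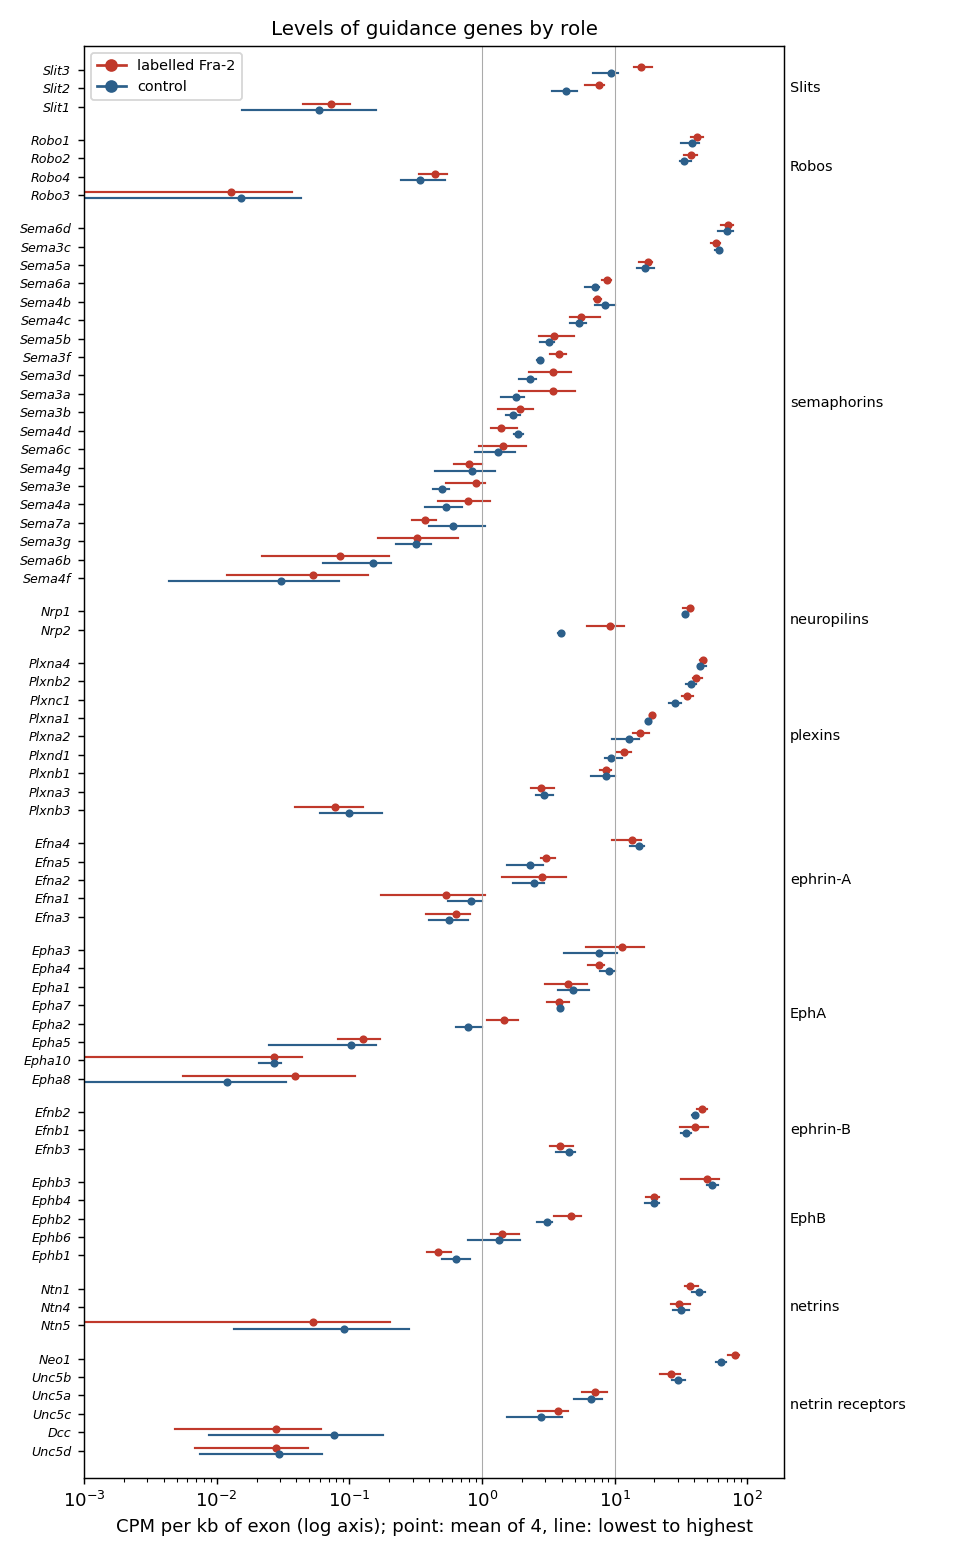
Level of each guidance gene in CPM per kilobase of exon, on a log axis, grouped by role. Points are means of 4 libraries and lines run from the lowest to the highest library, cut off at the left edge where a library had no read. Labelled Fra-2 is above control for each gene, Epha6 had no read and is not drawn, and grey lines mark 1 and 10 CPM per kilobase. Slit2, Slit3 and Nrp2 are set apart between the groups. The Slit receptors Robo1 and Robo2 and the other neuropilin, Nrp1, lie at higher levels and overlap.

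7 of the 69 genes did not pass the filter: Robo3, Sema4f, Epha6, Epha8, Epha10, Ntn5 and Unc5d. None of them reached 24 reads in any library. Epha6 had 0 of 279122727 reads over all libraries, which allows a level of up to 0.0107 CPM as far as counting error goes. Among the 62 genes that passed, Dcc, the classical netrin receptor of commissural axons, averaged only 0.370 ± 0.335 CPM in labelled Fra-2 libraries and 1.01 ± 0.992 CPM in controls. Robo4 and Sema3g, which are known mainly from endothelial cells, averaged 2.35 ± 0.531 and 1.47 ± 1.06 CPM in labelled Fra-2 libraries, against 1.82 ± 0.665 and 1.44 ± 0.418 CPM in controls. The endothelial markers summed to 157 to 177 CPM in labelled Fra-2 libraries and 127 to 158 CPM in controls. The largest part of this sum was Erg, at 75.2 ± 12.3 CPM in labelled Fra-2 libraries and 68.6 ± 7.55 CPM in controls. In these bulk samples, fewer cells of a type and less RNA per cell cannot be told apart.

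Slit2 encodes a large secreted ligand of Robo receptors that repels migrating cells in many tissues. It measured 213, 153, 213 and 194 CPM in labelled Fra-2 libraries 1 to 4, against 86.6, 96.5, 124 and 131 CPM in control libraries 1 to 4. All labelled Fra-2 libraries lay above all controls, with labelled Fra-2 2 the lowest of its group. The fold change was 1.76 (95% interval 1.42 to 2.19), a log2 fold change of 0.82 (SE 0.145, adjusted p = 0.0138 by edgeR). Slit2 (ENSMUSG00000031558) lies on chromosome 5 from 47983138 to 48307733 in GRCm38, and each library held 3383 to 7377 of its reads. Slit3, a second secreted Robo ligand, measured 92.5, 85.6, 116 and 88.4 CPM in labelled Fra-2 libraries 1 to 4, against 42.0, 60.9, 64.6 and 62.0 CPM in control libraries 1 to 4. The groups did not overlap, and control 1 lay well below the other controls. Its fold change was 1.67 (95% interval 1.35 to 2.06), a log2 fold change of 0.74 (SE 0.143, adjusted p = 0.0226 by edgeR). Slit3 (ENSMUSG00000056427) lies on chromosome 11 from 35121224 to 35708507. The exons of Slit2 and Slit3 overlap those of no other GENCODE gene. Slit1, mostly known from the nervous system, averaged 0.430 ± 0.152 CPM in labelled Fra-2 libraries and 0.351 ± 0.397 CPM in controls and did not pass (edgeR adjusted p = 0.964). Both calls were lost without some single libraries. Without labelled Fra-2 1, labelled Fra-2 3 and control 2 in turn, the edgeR adjusted p was 0.0676, 0.0568 and 0.066 for Slit2 and 0.0866, 0.106 and 0.0678 for Slit3, with log2 fold changes of 0.63 to 0.77.

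The Robo receptors did not pass. Robo1, the main Slit receptor in developing lung, measured 622, 675, 687 and 769 CPM in labelled Fra-2 libraries 1 to 4, against 522, 636, 710 and 673 CPM in control libraries 1 to 4. Robo2, its close relative, measured 649, 564, 705 and 662 CPM in labelled Fra-2 libraries, against 559, 538, 644 and 533 CPM in controls. The groups overlapped for both receptors. The fold change was 1.08 for Robo1 (95% interval 0.918 to 1.28, edgeR adjusted p = 0.886) and 1.13 for Robo2 (95% interval 0.974 to 1.32, edgeR adjusted p = 0.695). The log2 fold change of Robo1 was -0.03 in the female libraries alone. Taken as pairs, Slit3 with Robo1 or Robo2 stood at 15.8 beside 41.7 or 38.0 CPM per kilobase in labelled Fra-2 libraries, and at 9.45 beside 38.5 or 33.5 CPM per kilobase in controls. Slit2 stood at 7.60 CPM per kilobase in labelled Fra-2 libraries and 4.31 CPM per kilobase in controls. The merged exon length is 25433 bases for Slit2 and 6067 bases for Slit3, and the order of these genes depends on it. Not divided by length, Slit2 averaged 193 CPM in labelled Fra-2 libraries and 110 CPM in controls. Slit3 averaged 95.6 CPM in labelled Fra-2 libraries and 57.4 CPM in controls.

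**Figure D2:**
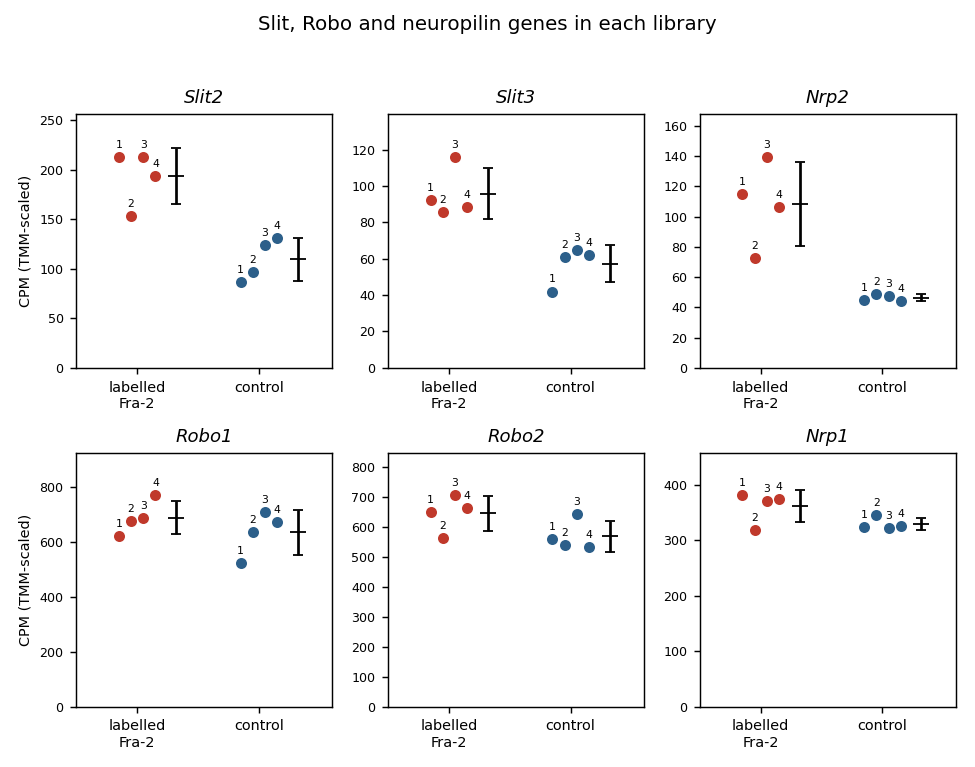
CPM (TMM-scaled, linear axis from 0) of Slit2, Slit3, Nrp2, Robo1, Robo2 and Nrp1 in each library, numbered by replicate, with labelled Fra-2 left of control. Bars give the mean and SD of 4 libraries. Every labelled Fra-2 library is above every control for Slit2, Slit3 and Nrp2, while the groups overlap for Robo1, Robo2 and Nrp1.

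Nrp2, the neuropilin that binds Sema3f and other class 3 semaphorins and also serves as a co-receptor for VEGF-C, showed the largest rise of the 62 tested guidance genes. It measured 115, 72.9, 140 and 106 CPM in labelled Fra-2 libraries 1 to 4, against 44.7, 49.1, 47.3 and 44.4 CPM in control libraries 1 to 4. Controls lay close together, while the labelled Fra-2 libraries spread widely and all lay higher. The fold change was 2.34 (95% interval 1.85 to 2.95), a log2 fold change of 1.23 (SE 0.157, adjusted p = 0.0012 by edgeR). Nrp2 kept its call without each library in turn, with edgeR adjusted p of up to 0.0114. Nrp2 (ENSMUSG00000025969) lies on chromosome 1 from 62703285 to 62818695, and 1477 to 4435 reads per library fell on it. Nrp1, the other neuropilin and a receptor for Sema3a and VEGF-A, measured 381, 319, 372 and 375 CPM in labelled Fra-2 libraries 1 to 4, against 325, 346, 323 and 326 CPM in control libraries 1 to 4. Its groups overlapped only through labelled Fra-2 2, and its fold change was 1.10 (95% interval 0.956 to 1.26, edgeR adjusted p = 0.797). Per kilobase of exon, the mean level of Nrp2 was 9.16 CPM in labelled Fra-2 libraries and 3.92 CPM in controls, and that of Nrp1 was 37.0 CPM in labelled Fra-2 libraries and 33.7 CPM in controls.

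By sex, the 3 called genes moved the same way. The log2 fold change in female and male libraries alone was 1.41 and 1.01 for Nrp2, 0.95 and 0.67 for Slit2 and 0.74 and 0.74 for Slit3. In males alone, with 2 libraries a group, none of the 3 passed by edgeR, and 3 genes passed in all. The test of the difference between the sexes passed for 0 of the 62 guidance genes in edgeR, and 1 had an unadjusted p under 0.05, Epha3.

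Across all 62 tested guidance genes, the 3 calls of edgeR stood beside 13 higher and 2 lower at an unadjusted p under 0.05, where 5.17% of all tested genes were higher and 3.53% lower. DESeq2 called 8 higher and 0 lower, where it called 1.76% of all tested genes higher and 0.629% lower. Limma-voom called the same 3 higher and 0 lower, where it called 0.707% of all tested genes higher and 0.259% lower. Without labelled Fra-2 1, labelled Fra-2 3 or control 2, 1 guidance gene was called higher, Nrp2. In the same order, 54 of 15803, 50 of 15908 and 50 of 15670 tested genes were called higher. Without labelled Fra-2 2 there were 6 guidance genes of 63, beside 153 of all 15734 tested genes. In 10 of the 62 every labelled Fra-2 library lay above every control, against 3.35% of all tested genes. In 0 of the 62 every labelled Fra-2 library lay below every control, against 2.42% of all tested genes. Groups of 3 against 4 separate more readily: without labelled Fra-2 2, 15 of the 62 lay higher and 3 lower with no overlap, against 5.89% and 4.69% of all tested genes. Of the 62 genes, 41 had a log2 fold change above 0, against 47.8% of all tested genes, and the median was 0.12, against -0.0123 over all tested genes. Guidance genes together took 0.827% to 0.847% of counts in the labelled Fra-2 libraries and 0.725% to 0.781% in controls. By role, the summed CPM, not divided by length, was higher in every labelled Fra-2 library than in any control for Slits (239 to 330 CPM against 129 to 194 CPM), plexins (1848 to 1958 CPM against 1629 to 1791 CPM) and B-type ephrins (459 to 474 CPM against 391 to 432 CPM). Summed per kilobase, B-type ephrins overlapped, with 84.3 CPM per kilobase in both labelled Fra-2 4 and control 4.

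**Figure D3:**
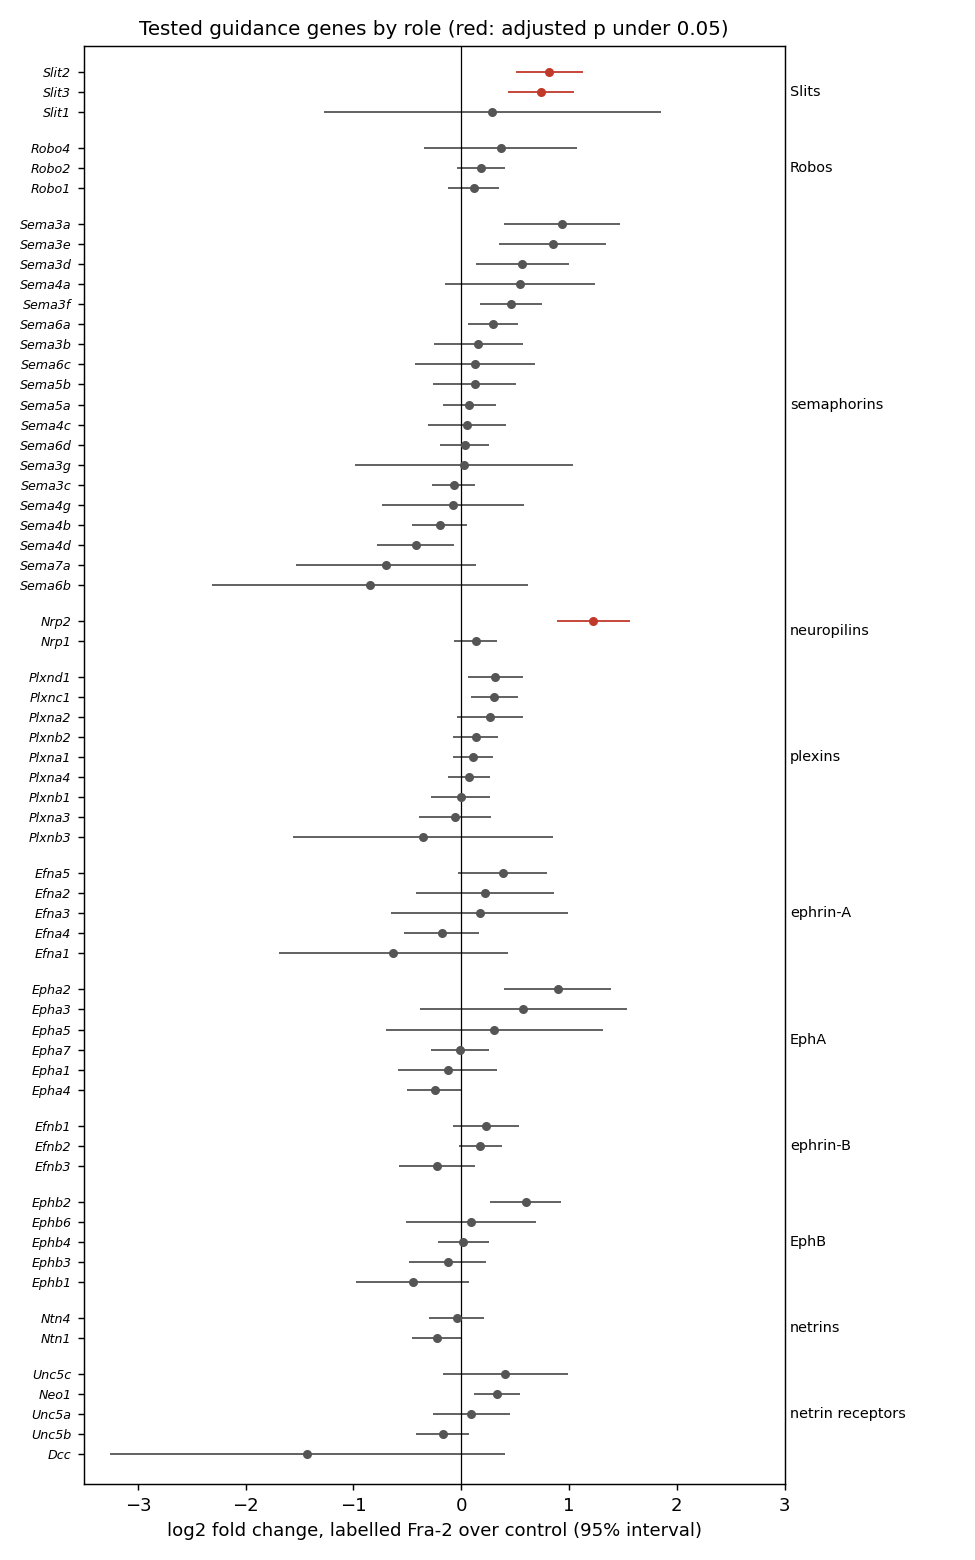
Log2 fold change of labelled Fra-2 over control with its 95% interval for the 62 guidance genes that passed the filter, by role, from edgeR. Red marks the called genes Slit2, Slit3 and Nrp2. All other intervals belong to genes that did not pass over all genes tested, and the widest are those of genes with few reads such as Dcc, Slit1 and Sema6b.

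No semaphorin passed among 19 tested in edgeR, with 5 at an unadjusted p under 0.05 above and 1 below. The smallest p belonged to secreted semaphorins of class 3. Sema3e, which binds Plxnd1 without a neuropilin, measured 9.60, 4.94, 9.29 and 9.83 CPM in labelled Fra-2 libraries 1 to 4, against 3.97, 5.08, 4.42 and 5.26 CPM in control libraries 1 to 4. Only labelled Fra-2 2 lay within the control range, and the log2 fold change was 0.85 (SE 0.231, adjusted p = 0.133 by edgeR). Sema3a, a repellent cue that acts through Nrp1, is given here after its values were seen. It measured 53.2, 26.2, 40.96 and 69.7 CPM in labelled Fra-2 libraries 1 to 4, against 26.4, 19.3, 29.0 and 24.7 CPM in control libraries 1 to 4. Again labelled Fra-2 2 lay within the control range, and the log2 fold change was 0.93 (SE 0.247, adjusted p = 0.138 by edgeR). Without labelled Fra-2 2 the edgeR adjusted p was 0.0149 for Sema3e and 0.00646 for Sema3a, and in DESeq2 it was 0.0218 and 0.00409. Sema3e did not pass in 17 of 19 alternatives and Sema3a did not in 15. In limma-voom the adjusted p was 0.2 for Sema3e and 0.165 for Sema3a. Sema3f, the classical ligand of Nrp2, measured 22.3, 17.04, 18.7 and 20.6 CPM in labelled Fra-2 libraries 1 to 4, against 14.8, 13.5, 13.8 and 15.1 CPM in control libraries 1 to 4. Its groups did not overlap, and the log2 fold change was 0.46 (SE 0.134, adjusted p = 0.178 by edgeR, DESeq2 adjusted p = 0.0377).

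Of the other semaphorins, Sema3d, a further secreted member of class 3, averaged 29.4 ± 9.45 CPM in labelled Fra-2 libraries and 19.9 ± 2.498 CPM in controls (log2 fold change 0.57, edgeR adjusted p = 0.337). Sema6b, Sema7a and Sema4a averaged under 5 CPM in either group, with log2 fold changes of -0.85, -0.70 and 0.54, and did not pass. Sema6a, a membrane-bound ligand of Plxna2 and Plxna4, averaged 77.0 ± 4.78 CPM in labelled Fra-2 libraries and 62.8 ± 6.89 CPM in controls, with no overlap between the groups (log2 fold change 0.29, edgeR adjusted p = 0.356). Sema6d, the semaphorin with the highest level per kilobase, measured 746, 671, 829 and 804 CPM in labelled Fra-2 libraries 1 to 4, against 821, 640, 787 and 736 CPM in control libraries 1 to 4 (edgeR adjusted p = 0.977). Sema3c, which guides cells of the heart outflow tract and is second in level among semaphorins, averaged 415 ± 32.4 CPM in labelled Fra-2 libraries and 436 ± 19.7 CPM in controls (edgeR adjusted p = 0.931). Sema4d, a ligand of Plxnb1 well known from immune cells, averaged 10.6 ± 2.32 CPM in labelled Fra-2 libraries and 14.3 ± 1.05 CPM in controls (log2 fold change -0.42, edgeR adjusted p = 0.424). The immune markers summed to 92.2 to 121 CPM in labelled Fra-2 libraries and 78.9 to 117 CPM in controls, and their part in this value was not tested.

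Plexins, the signalling receptors of semaphorins, did not pass in any of 9 cases in edgeR, with 2 at an unadjusted p under 0.05, both higher. Plxnc1, the receptor of Sema7a, measured 296, 269, 292 and 327 CPM in labelled Fra-2 libraries 1 to 4, against 266, 231, 244 and 215 CPM in control libraries 1 to 4. The lowest labelled Fra-2 library lay just above the highest control, and the log2 fold change was 0.31 (SE 0.101, adjusted p = 0.262 by edgeR). Plxna1 averaged 173 ± 6.66 CPM in labelled Fra-2 libraries and 161 ± 4.73 CPM in controls, and its lowest labelled Fra-2 library had 167.67 CPM beside 167.66 CPM in the highest control. Its fold change was 1.08 (95% interval 0.948 to 1.22, edgeR adjusted p = 0.84). A predicted gene overlaps 10.7% of the exon bases of Plxna1, and reads of such overlaps cannot be assigned. Plxna4, the plexin with the highest level per kilobase, averaged 660 ± 31.3 CPM in labelled Fra-2 libraries and 627 ± 38.8 CPM in controls (edgeR adjusted p = 0.918). Plxnd1, the receptor of Sema3e, averaged 85.9 ± 8.30 CPM in labelled Fra-2 libraries and 68.9 ± 10.2 CPM in controls (log2 fold change 0.32, edgeR adjusted p = 0.395).

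Among Eph receptors, Ephb2 and Epha2 had the smallest p of the genes that did not pass. Ephb2, a receptor of B-type ephrins that sorts cells at tissue boundaries, measured 68.3, 43.8, 70.6 and 53.1 CPM in labelled Fra-2 libraries 1 to 4, against 32.6, 39.6, 41.4 and 42.3 CPM in control libraries 1 to 4. The groups did not overlap, and labelled Fra-2 2 lay just above the highest control. The log2 fold change was 0.60 (SE 0.152, adjusted p = 0.0997 by edgeR). Ephb2 was past the threshold in 4 of 19 alternatives. These were DESeq2 (adjusted p = 0.0143) and, by edgeR, no filter (0.0229), females alone (0.0121) and leaving out labelled Fra-2 2 (0.0165). In the other 15 it did not pass. Among these, the adjusted p was 0.131 in limma-voom and, by edgeR, 0.107 with a replicate block and 0.0823 with a sex term. Epha2, a receptor of Efna1 found in many epithelia, measured 6.34, 6.97, 5.14 and 8.80 CPM in labelled Fra-2 libraries 1 to 4, against 2.98, 3.19, 4.67 and 3.82 CPM in control libraries 1 to 4. Its groups did not overlap either, and the log2 fold change was 0.90 (SE 0.232, adjusted p = 0.106 by edgeR, DESeq2 adjusted p = 0.0121). The epithelial markers summed to 105 to 201 CPM in labelled Fra-2 libraries and 55.4 to 128 CPM in controls. Their part in the value of Epha2 was not tested.

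The other Eph receptors overlapped between the groups. Ephb3, the most abundant of them per kilobase, measured 210, 407, 330 and 380.5 CPM in labelled Fra-2 libraries 1 to 4, against 347, 329, 398 and 373 CPM in control libraries 1 to 4. Labelled Fra-2 1 stood far below the rest, the log2 fold change was -0.12 (SE 0.166, adjusted p = 0.931 by edgeR), and without that library it was 0.05. Epha3, the EphA receptor with the highest level per kilobase, measured 53.1, 145, 62.8 and 136 CPM in labelled Fra-2 libraries 1 to 4, against 35.9, 82.0, 57.8 and 90.0 CPM in control libraries 1 to 4. In the labelled Fra-2 group both male libraries were above both females. Among controls the male control 1 was the lowest, below both females. In both groups libraries 2 and 4 lay above libraries 1 and 3. The log2 fold change of Epha3 was 0.58 (SE 0.414, adjusted p = 0.816 by edgeR), with -0.27 in females and 1.16 in males. The difference between the sexes had an edgeR unadjusted p of 0.0127 and did not pass after adjustment. With replicate number as a block the log2 fold change was 0.525 (edgeR adjusted p = 0.0601).

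Ephrins did not pass. Efnb2, which with its receptor Ephb4 marks arteries and veins in the vasculature and is also made by lung mesenchyme, measured 286, 293, 327 and 341 CPM in labelled Fra-2 libraries 1 to 4, against 287, 261, 268 and 286 CPM in control libraries 1 to 4. Only labelled Fra-2 1 lay within the control range, and the fold change was 1.13, a log2 fold change of 0.18 (SE 0.0948, adjusted p = 0.669 by edgeR). Efnb1 averaged 140 ± 31.5 CPM in labelled Fra-2 libraries and 119 ± 10.7 CPM in controls (edgeR adjusted p = 0.742). Of the A-type ephrins, which are anchored by a lipid, Efna4 had the highest level per kilobase and averaged 21.7 ± 4.65 CPM in labelled Fra-2 libraries and 24.6 ± 2.51 CPM in controls (edgeR adjusted p = 0.871). Efna5 measured 14.4, 11.5, 11.3 and 11.5 CPM in labelled Fra-2 libraries 1 to 4, against 6.22, 10.1, 11.7 and 9.30 CPM in control libraries 1 to 4, and the groups overlapped (edgeR adjusted p = 0.629).

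No netrin and no netrin receptor passed in edgeR, with Ntn1 lower and Neo1 higher at an unadjusted p under 0.05. Ntn1 measured 221, 269, 222 and 215 CPM in labelled Fra-2 libraries 1 to 4, against 240.1, 275, 272 and 299.7 CPM in control libraries 1 to 4. Labelled Fra-2 2 lay within the control range and the other 3 below it, and the log2 fold change was -0.23 (SE 0.106, adjusted p = 0.565 by edgeR). Ntn4, a netrin of basement membranes that binds laminins, averaged 114 ± 16.9 CPM in labelled Fra-2 libraries and 118 ± 13.6 CPM in controls (edgeR adjusted p = 0.97). Neo1 measured 761, 621, 727 and 690 CPM in labelled Fra-2 libraries 1 to 4, against 509, 534, 580.2 and 607 CPM in control libraries 1 to 4. The groups did not overlap, and the log2 fold change was 0.33 (SE 0.0997, adjusted p = 0.203 by edgeR, DESeq2 adjusted p = 0.0602). Unc5b, a repulsive netrin receptor, averaged 167 ± 23.4 CPM in labelled Fra-2 libraries and 188 ± 17.9 CPM in controls (edgeR adjusted p = 0.78).

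**Figure D4:**
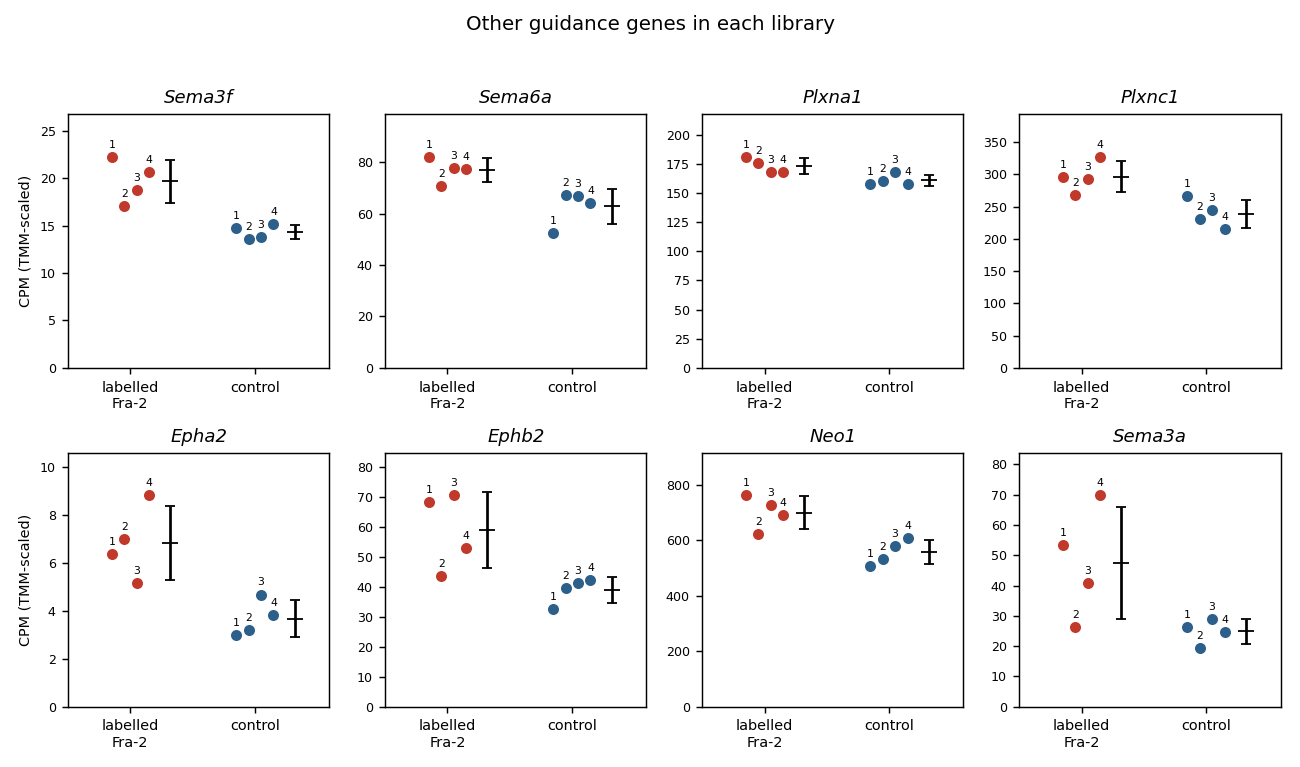
CPM (TMM-scaled, linear axes from 0) in each library, numbered by replicate, for the 7 guidance genes whose groups did not overlap but that did not pass over all genes, and for Sema3a, with labelled Fra-2 left of control. Bars give the mean and SD of 4 libraries. Labelled Fra-2 2 is the lowest of its group for Sema3f, Sema6a, Plxnc1, Ephb2, Neo1 and Sema3a.

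Labelled Fra-2 2 was the lowest of its group in 8 of the 10 genes whose groups did not overlap. It was the lowest in 23 of all 62 guidance genes (37.1%) and in 32.2% of all genes tested. The share among all tested genes whose groups did not overlap was not computed. Among controls, control 1 was the lowest in 23 of the 62 (37.1%), against 28.3% of all genes.

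Of 66 ligand and receptor pairs known from the literature with both genes in the table, 42 had both partners at a mean of at least 1 CPM per kilobase and 11 at a mean of at least 10. The 11 were Sema3c with Nrp1, Sema6d with Plxna1, Slit3 with Robo1 and with Robo2, Efnb1 and Efnb2 each with Ephb3 and with Ephb4, Ntn1 with Neo1 and with Unc5b, and Ntn4 with Neo1. A called gene stood in 8 of the 66 pairs, 4 on the ligand side (Slit2 and Slit3 with Robo1 and Robo2) and 4 on the receptor side (Nrp2 with Sema3b, Sema3c, Sema3f and Sema3g). In 0 of the pairs were both partners called by edgeR. Sema3c, at 58.1 CPM per kilobase in labelled Fra-2 libraries and 61.0 CPM per kilobase in controls, was the ligand of Nrp2 with the highest level, and Sema3f had 3.78 CPM per kilobase in labelled Fra-2 libraries and 2.76 CPM per kilobase in controls.

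Other genes of these pathways, 64 in number and 60 of them tested, gave 0 calls in edgeR in either direction, with 9 higher and 2 lower at an unadjusted p under 0.05, beside the 5.17% and 3.53% of all tested genes. DESeq2 called 4 of them (Farp1, Srgap3, Vegfd and Flrt3) and limma-voom called 0. Their median log2 fold change was 0.08. Srgap3, a GTPase-activating protein downstream of Robo receptors and named after its values were seen, averaged 25.4 ± 1.12 CPM in labelled Fra-2 libraries and 19.0 ± 1.63 CPM in controls (edgeR adjusted p = 0.179). Flrt3, a membrane protein that binds Unc5 receptors, averaged 30.6 ± 5.08 CPM in labelled Fra-2 libraries and 18.5 ± 3.62 CPM in controls (edgeR adjusted p = 0.0573). Vegfd, a lymphatic growth factor of the VEGF family, averaged 139.8 ± 27.3 CPM in labelled Fra-2 libraries and 86.4 ± 29.1 CPM in controls (edgeR adjusted p = 0.308).

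After subtraction of the group means, the tested genes whose log2 CPM followed Nrp2 most closely over the 8 libraries were Nrk (Pearson r = 0.989), 2210016F16Rik (r = 0.975) and Zdbf2 (r = 0.965). Zdbf2 lies on the same chromosome as Nrp2, from 63273265 to 63314576. For Slit2 they were Rapgef5 (r = 0.991), Adam10 (r = 0.987) and Vcam1 (r = 0.985), and for Slit3 they were Itgbl1 (r = 0.989), Srpx2 (r = 0.983) and Sulf2 (r = 0.968). Among these 9 genes Itgbl1 alone was itself called (log2 fold change 2.08, edgeR adjusted p = 0.00818). These are the highest of 15422 values each over few libraries that share their preparation but not their depth, and are given as a description. Among the called genes, r was 0.73 for Slit2 and Slit3, 0.56 for Slit2 and Nrp2 and 0.52 for Slit3 and Nrp2.

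Markers of other cell types gave 0 calls in edgeR among 46 tested, with 6 higher and 2 lower at an unadjusted p under 0.05 (5.17% and 3.53% over all tested genes), while DESeq2 called Rgs5 and Sftpb and limma-voom called 0. No marker was at 0 in every library. Beside the sums already given, mesothelial markers summed to 7.20 to 14.0 CPM in labelled Fra-2 libraries and 3.95 to 9.54 CPM in controls. Neural and Schwann cell markers summed to 14.2 to 23.3 CPM in labelled Fra-2 libraries and 12.004 to 21.2 CPM in controls. Pericyte markers summed to 1217 to 1559 CPM in labelled Fra-2 libraries and 1578 to 1943 CPM in controls, with no overlap. Most of this sum was Rgs5, at 1025 ± 141 CPM in labelled Fra-2 libraries and 1391 ± 95.7 CPM in controls (edgeR adjusted p = 0.092). The other pericyte markers went both ways. Kcnj8, Higd1b and Abcc9 had log2 fold changes of -0.44, -0.29 and -0.09, and Cox4i2, Notch3 and Cspg4 had 0.53, 0.32 and 0.17. The part of these cells in the values of Nrp2, Slit2 and Slit3 was not tested.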

How the data were processed

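The deposited values are raw read counts for mouse Ensembl genes, in 1 column per library. Per the labels' protocols, total RNA was column-purified, mRNA was selected and amplified to cDNA (NuGEN Ovation V2) and libraries were made by transposition (Nextera XT). No step marks the strand, so reads of overlapping genes cannot be told apart, and amplification adds spread between libraries. Human build GRCh38 is named in the submitters' processing notes, although all identifiers are mouse ones. The sources used here do not give the aligner or counter. Of 43432 identifiers, 42462 matched a symbol in GENCODE M21 (GRCm38), which also gave coordinates and exon lengths, and the others held 0.0892% of counts.

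Counts were filtered with filterByExpr (minimum count 10, minimum total 15), scaled by TMM and compared with edgeR 4.0.16's quasi-likelihood F-test (R 4.3.3), two-sided, with Benjamini-Hochberg adjustment over all 15422 tested genes at 0.05. SE is the absolute log2 fold change over the square root of F. CPM per kilobase divides CPM by merged exon length. Log2 CPM used a prior count of 2. Alternatives were RLE and total-count scaling, no filter, at least 1 CPM in 4 libraries, DESeq2 1.42.0, limma-voom 3.58.1, a replicate block, a sex term, each sex alone, and leaving out each library. Leaving out mitochondrial ribosomal RNA, and counts of genes without overlap under other scalings and without each library, were alternatives chosen after seeing the data. The fit was tested on simulated data. It recovered 42% of 1.5-fold, 66% of 2-fold, 92% of 4-fold and 100% of 8-fold changes, and 7.41% of its calls were false. Small changes can thus be missed.

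The members and lists were chosen with earlier results of these data known. Genes are given per library if called, if their groups did not overlap, or if they had the highest level per kilobase or smallest p of their role. Sema3a and other genes marked so were chosen after their values were seen. Intervals cover the spread between libraries, and depth sets counting error.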

Additional observations from a re-analysis of the deposited data

Results flagged for a closer look

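For 23 guidance genes and Fosl2, each group of 4 libraries was searched for a library far from the other 3, and 7 of the 48 groups held one. Chance flags about 1 group in 20. Control 1 was the lowest control for Slit3, at 42.0 CPM where the others had 60.9 to 64.6 CPM. Labelled Fra-2 2 was the lowest of its group for Sema3e, at 4.94 CPM against 9.29 to 9.83 CPM in the other 3, and for Nrp1, at 319 CPM against 372 to 381 CPM. The same library was the highest of its group for Ntn1, at 269 CPM against 215 to 222 CPM. Labelled Fra-2 1 was the highest of its group for Efna5, at 14.4 CPM against 11.3 to 11.5 CPM. Control 2 was the highest control for Nrp1, at 346 CPM against 323 to 326 CPM, and for Plxna4, at 685 CPM against 602 to 612 CPM.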

How the results depend on the processing

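The count of guidance genes called higher, 3, was the same under RLE and total-count scaling, the stricter filter, limma-voom, a sex term and without mitochondrial ribosomal RNA. It was 4 with no filter, 8 in DESeq2, 5 in females alone and 0 in males alone, and 1 to 6 without single libraries, and 0 were called lower under every one of these alternatives. Over all genes, DESeq2 called 272 higher and 97 lower, and males alone gave 3 and 0. With no filter there were 139 higher and 67 lower of 26980 tested genes. In females alone there were 142 higher and 37 lower of 15772. Without single libraries there were 50 to 153 higher and 22 to 52 lower. The count of guidance genes without overlap, in either direction, was 10 to 18 of 62 without single libraries, where 7.73% to 11% of all tested genes did not overlap, and 9 under total-count scaling, where 5.73% did not. The log2 fold change of Fosl2 stayed at 0.01 to 0.24 and never passed. Of 437 values of 23 named genes under alternatives, 409 kept their direction and side of the threshold, 9 lost a call, 12 gained one and 7 changed sign, all 7 in genes that did not pass. In females alone the sign changed for Robo1 (-0.035) and Epha3 (-0.27), and in males alone for Sema6d (-0.077) and Ephb3 (0.13). Without labelled Fra-2 1 it changed for Ephb3 (0.047), and without labelled Fra-2 3 and control 2 for Sema6d (-0.0075 and -0.029). Without single libraries the log2 fold change ranged from -0.24 to 0.047 for Ephb3 and from -0.029 to 0.089 for Sema6d. The cause was not tested. Whether replicate numbers pair the libraries was not settled. Deviations of same-numbered libraries correlated at 0.002, 0.219, 0.08 and 0.31, and 2 of 4 labelled Fra-2 libraries matched their own number best. So few values cannot decide it. A fit with replicate number as a block called 137 genes higher and 53 lower and 4 guidance genes higher, Sema3a added (adjusted p = 0.0291), with log2 fold changes of 1.19 for Nrp2, 0.83 for Slit2 and 0.75 for Slit3. Dcc had 2 to 78 reads per library, and its interval was the widest of the 62 tested guidance genes.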
